A study of Homo sapiens with 12 samples.

Results

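Protein phosphatase 1 (PP1) is a serine/threonine phosphatase whose catalytic subunit rarely acts alone. The genes PPP1CA, PPP1CB and PPP1CC encode its catalytic subunits, and regulatory proteins bind them, inhibit them or carry them to a substrate. The 9 genes described here are these 3 catalytic genes and 6 regulatory genes, PPP1R10, PPP1R8, PPP1R15A, PPP1R15B, PPP1R2 and PPP1R3C. They were taken by gene symbol or older alias from the probe annotation and were found as 9 of 14486 named genes, on 10 of 17593 named probes. PPP1R2 had 2 probes and each of the others had 1. The set was chosen by these symbols with the log2 ratios of all 3 comparisons already known, so the values below describe the genes, and whether one of them passed a test is not independent evidence.

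RNA came from LNCaP cells, an established prostate cancer line, kept for 24 h with metformin at 5 mM, with AICAR at 5 mM, or untreated as control. The treatment time is that of the sample labels, and a legend of the paper gives a shorter one for metformin. Metformin is a biguanide that inhibits complex I of the respiratory chain, and AICAR is a nucleoside that cells turn into an activator of AMPK. Each pair of conditions was hybridized together on two-colour arrays in 2 independent cultures, with the dyes exchanged on another array, so that each comparison has 4 arrays and the series has 12. All extracts are from 1 cell line, which limits them as a model. The deposited log ratios were taken as log2 of the Cy5 signal over the Cy3 signal. Neither base nor direction is stated in the sources used here, so every sign depends on that choice and on the dye labels. With this choice DDIT3 and ATF4, stress response genes that block of the respiratory chain is known to induce, stood at log2 4.97 and 1.13 for metformin over control, which is the basis for calling the direction likely.

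Dye-swap arrays were averaged, and limma fitted treatment and culture for each of 24541 transcripts. To pass, a transcript needed an adjusted p (Benjamini-Hochberg) under 0.05 together with a log2 ratio of more than 0.7 in size, and these limits follow the published methods. "Rose" and "fell" are used of genes that passed. The SE belongs to the fitted ratio, with 2 cultures behind it, and the small number of arrays limits precision. Dye-swap partners correlated across features at −0.42 to −0.723 before their signs were turned. Slide numbers of 3 arrays stand apart from the other 9, namely the pair that holds metformin and control RNA of culture 1 and the array of that culture with AICAR in Cy5 and control in Cy3. The slide number of the latter array also lies apart from those of the pair, so the 3 arrays are not a single run. The values hold no spot intensities, so whether a probe lay above background was not analysed here. Of 8 markers of LNCaP cells 6 were measured. With metformin 2 fell, KLK3 (log2 −0.72) and TMPRSS2 (log2 −1.04), where 1.23% of all transcripts were called lower. With AICAR 1 fell, TMPRSS2 (log2 −1.90), where 2.89% were called lower, and TMPRSS2 was higher with metformin than with AICAR (log2 0.86). The median log2 ratio of the 6 was −0.41 with metformin and 0.06 with AICAR, and the highest of them with AICAR was 0.36. At an unadjusted p below 0.05 in limma 0 were higher and 3 lower with metformin, and 0 higher and 2 lower with AICAR. A ratio between 2 extracts does not show that a marker is present. From the direct ratios of the metformin and control arrays alone no transcript passed in limma (3948 had an unadjusted p below 0.05), so every call of metformin over control given here, of the markers and of the genes below, was lost under that alternative.

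Among the regulatory subunits, the protein of PPP1R10, also called PNUTS, holds PP1 at chromatin with WDR82 and TOX4 and acts on RNA polymerase II at the end of genes. That of PPP1R8, called NIPP1, is a nuclear inhibitor of PP1 that binds splicing factors. The products of PPP1R15A (GADD34) and PPP1R15B (CReP) direct PP1 to the α subunit of the initiation factor eIF2, the first one induced by stress and the second one present in unstressed cells. PPP1R2 encodes the heat-stable inhibitor known as inhibitor-2, and PPP1R3C encodes PTG, which brings PP1 to glycogen. In these arrays 3 of the 9 genes passed in at least 1 comparison, PPP1R10, PPP1R8 and PPP1CB, and 6 passed in none. Over all transcripts 2.73% passed for metformin over control, 3.35% for AICAR over control and 6.6% for metformin over AICAR. These are shares of single comparisons. The share of all transcripts that passed in at least 1 was not counted, so nothing is read from the 3 of 9.

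The start regions of 8 of the 9 genes were found in the RefSeq promoter table of build GRCh38.p14, each with 250 bases before the transcription start and 50 after it. The windows of the 3 genes that passed are shown with that of PPP1R15A, the stress-induced partner. Capitals mark matches on either strand to TGACGTCA (the CRE palindrome), TGATGNAA (a core shared by ATF4 composite sites), CCAAT and TATAAA, and the marked matches do not overlap. PPP1R10 lies on chromosome 6 (window chr6:30617194-30617493, minus strand), PPP1R8 on chromosome 1 (chr1:27830532-27830831, plus strand), PPP1CB on chromosome 2 (chr2:28751354-28751653, plus strand, the first of 2 starts listed) and PPP1R15A on chromosome 19 (chr19:48872171-48872470, plus strand).
PPP1R10: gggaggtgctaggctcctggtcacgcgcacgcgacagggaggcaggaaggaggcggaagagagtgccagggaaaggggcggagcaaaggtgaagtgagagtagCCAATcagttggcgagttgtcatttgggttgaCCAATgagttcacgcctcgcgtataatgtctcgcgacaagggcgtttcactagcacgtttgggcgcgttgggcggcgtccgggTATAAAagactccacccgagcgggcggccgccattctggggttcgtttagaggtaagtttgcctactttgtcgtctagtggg
PPP1R8: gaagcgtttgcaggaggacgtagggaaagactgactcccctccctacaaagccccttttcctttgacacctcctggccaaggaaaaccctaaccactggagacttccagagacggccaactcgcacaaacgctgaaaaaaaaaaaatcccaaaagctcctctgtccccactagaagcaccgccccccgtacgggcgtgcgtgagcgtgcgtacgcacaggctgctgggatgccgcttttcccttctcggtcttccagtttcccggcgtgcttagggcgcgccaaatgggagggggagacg
PPP1CB: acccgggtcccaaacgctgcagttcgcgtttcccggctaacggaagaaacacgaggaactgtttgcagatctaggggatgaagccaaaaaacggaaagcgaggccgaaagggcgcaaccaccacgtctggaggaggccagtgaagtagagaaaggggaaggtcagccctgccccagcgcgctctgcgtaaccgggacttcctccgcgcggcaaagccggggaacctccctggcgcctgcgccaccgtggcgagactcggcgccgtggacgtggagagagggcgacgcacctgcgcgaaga
PPP1R15A: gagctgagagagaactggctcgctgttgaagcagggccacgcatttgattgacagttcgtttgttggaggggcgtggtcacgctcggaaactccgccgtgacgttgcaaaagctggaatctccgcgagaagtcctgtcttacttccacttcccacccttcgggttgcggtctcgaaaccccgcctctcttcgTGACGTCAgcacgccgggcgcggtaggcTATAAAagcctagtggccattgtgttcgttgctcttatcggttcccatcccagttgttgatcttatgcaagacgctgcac

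The window of PPP1R10 held TATAAA 32 bases before the start and CCAAT at 147 and 115 bases before it. That of PPP1R15A held TATAAA 30 bases and TGACGTCA 58 bases before the start. No match to the 4 motifs was found in the windows of PPP1R8, PPP1CB and PPP1R2, which says only that these letters are not in them. The TGATGNAA core was found in that of PPP1R15B alone among the 8. Of all 35116 windows of this length in the table, 1.85% held TGACGTCA, 3.62% TGATGNAA, 34.6% CCAAT and 11.5% TATAAA. These matches are a description of the sequence and were not set against the ratios.

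PPP1R10 was the lowest of all 24541 transcripts with AICAR. The log2 ratio of AICAR to control was −4.22 on the array of culture 1 with AICAR in Cy5, −3.62 with AICAR in Cy3, and −3.72 and −2.81 on the same 2 kinds of array of culture 2. All 4 arrays lay far below 0, and the least negative of them was still below the fitted ratio of PPP1R8, the next lowest gene of the 9. The fitted log2 ratio was −3.61 (SE 0.13, n = 2 cultures), 12.2-fold lower with AICAR, with −3.83 in culture 1 and −3.39 in culture 2. The transcripts next to it in this order, both unnamed probes, had −3.17 and −3.15. In RNA from whole cultures, a loss in some cells and a smaller amount in every cell cannot be told apart.

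PPP1R10 also fell with metformin, but by less. Its log2 ratio of metformin to control was −0.92 and −1.13 in culture 1, with metformin in Cy5 and in Cy3, and −0.88 on both arrays of culture 2. The arrays thus kept within a narrow band below −0.7. Fitted, the ratio was −0.94 (SE 0.13), 1.92-fold lower with metformin, and PPP1R10 ranked 218 from the lowest of all transcripts. On the arrays that hold metformin and AICAR RNA but no control RNA, PPP1R10 was higher with metformin, at 2.32 and 2.94 in culture 1 and 2.73 and 2.76 in culture 2. The fitted log2 ratio of metformin to AICAR was 2.67 (SE 0.13), 6.37-fold, which ranked 27 from the highest. In levels relative to the mean of each culture, on a log2 scale, PPP1R10 stood at 0.53 with metformin, −2.18 with AICAR and 1.65 in control in culture 1, and at 0.62, −2.003 and 1.38 in the same order in culture 2. The 3 levels did not overlap between conditions in the 2 cultures, and how many of all transcripts do the same was not counted.

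**Figure D1:**
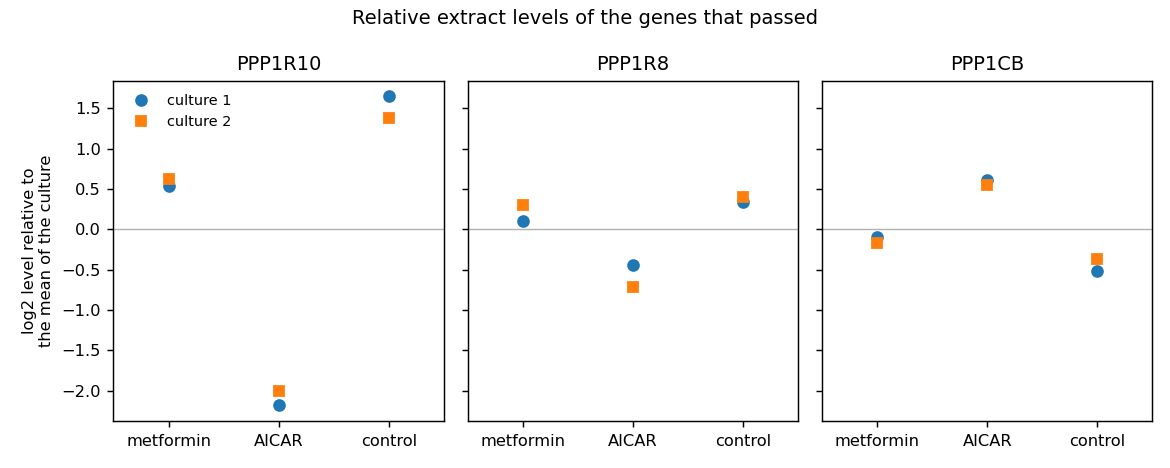
Relative extract levels (log2, vertical axis) of PPP1R10, PPP1R8 and PPP1CB in metformin, AICAR and control extracts, as circles for culture 1 and squares for culture 2, each set against the mean of the 3 extracts of its culture. PPP1R10 and PPP1R8 are lowest with AICAR in both cultures and PPP1CB is highest with AICAR in both, and PPP1R10 reaches −2.18 and −2.003.

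Under all 8 other fits PPP1R10 kept its calls for AICAR over control and metformin over AICAR, with log2 ratios of −3.64 to −3.50 and 2.55 to 2.70. Separate arrays, a dye term, probes tested singly and robust variances could not move the ratio of this single-probe gene. The PPP1R10 call for metformin against control was lost from the direct ratios of the metformin and control arrays alone (log2 −0.95) and with arrays scaled to a common spread (log2 −0.99), at the same size. The gene next to PPP1R10 on the opposite strand is MRPS18B, which encodes a mitochondrial ribosomal protein and starts 597 bases away. MRPS18B did not pass in any comparison, with a log2 ratio of −0.38 for AICAR against control (SE 0.20, adjusted p = 0.358 from limma), −0.21 for metformin against control (adjusted p = 0.71) and 0.17 for metformin against AICAR (adjusted p = 0.655). The genes with the smallest root mean square difference from PPP1R10 over the 6 dye-swap mean ratios, which share extracts, were RTL6 (difference 0.695 on the log2 scale), DDX28 (0.802) and FADD (0.849). Fitted ratios of AICAR to control were −2.65 for RTL6, −2.57 for DDX28 and −3.10 for FADD. FADD stood at 0.22 with metformin, where PPP1R10 fell. These genes were picked for likeness over the same ratios, so low values with AICAR follow from the choice.

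The partners of PNUTS on chromatin were measured too. WDR82 had a log2 ratio of −0.73 with AICAR (SE 0.24, adjusted p = 0.189 from limma) and −0.16 with metformin (adjusted p = 0.842). TOX4 had −0.20 with AICAR (SE 0.078, adjusted p = 0.251) and 0.39 with metformin (adjusted p = 0.0787). Neither passed, and between metformin and AICAR TOX4 reached 0.58 with an adjusted p of 0.0173 from limma, short of the ratio threshold. Both genes were chosen for mention after their values were seen.

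PPP1R8, the gene of the other nuclear subunit, also fell with AICAR. The log2 ratio of AICAR to control was −1.57 and 0.06 in culture 1, with AICAR in Cy5 and in Cy3, and −1.37 and −0.86 in culture 2. Of the 4 arrays 1 stood near 0 and the other 3 were below −0.7. The fitted ratio was −0.95 (SE 0.13), 1.94-fold lower with AICAR, with −0.78 and −1.12 in the cultures. Between metformin and AICAR, PPP1R8 was higher with metformin on all 4 arrays, at 0.30 and 0.84 in culture 1 and 0.80 and 1.26 in culture 2, and the fitted ratio was 0.78 (SE 0.13). For metformin against control the 4 arrays gave −1.29 and 0.75 in culture 1 and −0.28 and 0.07 in culture 2, which straddle 0, and PPP1R8 did not pass at −0.17 (SE 0.13). In levels relative to the culture mean, on a log2 scale, PPP1R8 stood at 0.10 with metformin, −0.44 with AICAR and 0.34 in control in culture 1, and at 0.31, −0.72 and 0.41 in culture 2. The AICAR levels lay apart from the others, and the metformin level of culture 2 lay next to the control level of culture 1. The share of all transcripts with AICAR levels apart was not counted.

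The ratio of PPP1R8 depended on the dye in the pairs of culture 1 that hold control RNA. Those are the pairs that include arrays with slide numbers apart. On the 3 arrays with slide numbers apart, the ratio of Cy5 to Cy3 before turning was below 0 whichever extract was in Cy5, at −1.57 to −0.75, whereas the other 9 ran from −1.37 to 0.86. The dye effect, the part of a pair's ratio that does not turn with the dyes, was −1.02 for metformin and control in culture 1 and −0.82 for AICAR and control, sizes reached by 0.369% and 0.872% of the 27648 features. In the other 4 dye-swap pairs it was −0.27 to −0.17. Without these 3 arrays, the ratio of AICAR to control was −0.53 and no longer passed, and that of metformin to control turned to 0.27. The ratio of metformin to AICAR stayed at 0.80 but also lost its call, as it did from direct ratios only (0.80) and with scaled arrays (0.69). Leaving out the 3 arrays removes both metformin and control arrays of culture 1. The AICAR and control ratio of that culture then rests on 1 array, with AICAR in Cy3. A dye effect no longer cancels there, so this setting does not separate slide from dye. With a dye term in the fit, the ratio of AICAR to control was −0.95 and passed. That fit counts dye-swap arrays of the same extracts as separate data points. Because the dyes are balanced, a dye term cannot move the ratio, so nothing is read from this pass. A dye effect common to both arrays of a dye-swap pair cancels in their mean, but the AICAR and control pair of culture 1 holds 1 array of each kind of slide number, and the part of the slides in the result was not tested further.

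**Figure D2:**
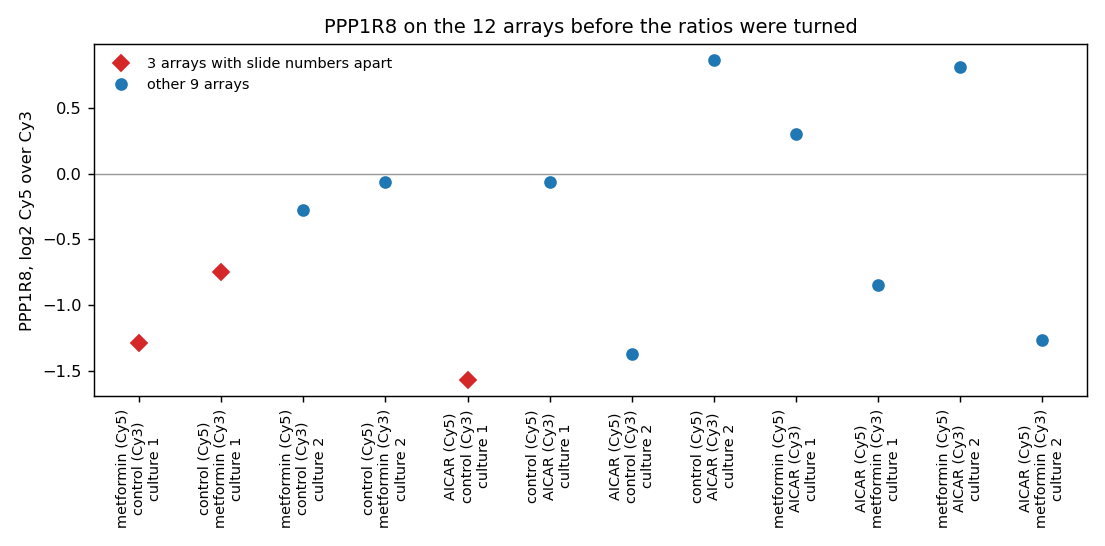
log2 ratio of Cy5 to Cy3 for PPP1R8 (vertical axis) on each of the 12 arrays, named by the extract in each dye and the culture, before ratios were turned to a common direction. Red diamonds are the 3 arrays with slide numbers apart, which lie between −1.57 and −0.75, and blue circles are the other 9, which change sign with the dyes in the AICAR and control pair of culture 2 and in both metformin and AICAR pairs.

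The genes most like PPP1R8 over the 6 dye-swap mean ratios were MAPK7 (root mean square difference 0.0742 on the log2 scale), MTUS1 (0.0743) and DDX31 (0.0951). MAPK7 encodes the kinase ERK5, MTUS1 a protein of microtubules and DDX31 an RNA helicase. All of them had a lower level with AICAR than in control, with fitted ratios of −0.95, −0.97 and −0.99, and passed. They were picked for likeness over these same ratios, so this direction follows from the choice.

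Neither eIF2 phosphatase partner passed in a comparison. PPP1R15A had a log2 ratio of metformin to control of 0.0023 and −0.34 in culture 1, with metformin in Cy5 and in Cy3, and −0.06 and −0.36 in culture 2. The arrays with metformin in Cy5 were near 0 and those with metformin in Cy3 lower, and the fitted ratio was −0.11 (SE 0.11, 95% interval −0.39 to 0.175 without adjustment). On the same arrays DDIT3, the gene of the transcription factor CHOP, had a fitted ratio of 4.97 and ATF4 one of 1.13, and PPP1R15A is a known target of both factors. With AICAR, PPP1R15A stood at 0.36 and −0.05 in culture 1 and at 0.39 and 0.35 in culture 2, with a fitted ratio of 0.18 (SE 0.11). Between metformin and AICAR it was at −0.29 (SE 0.11), with 0.07 to −0.09 in culture 1 and −0.35 to −0.48 in culture 2. The single probe leaves no second measurement of this mRNA.

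PPP1R15B stayed near 0. Its log2 ratio of metformin to control was 0.19 and 0.26 in culture 1 and −0.06 and 0.13 in culture 2, with a fitted ratio of 0.11 (SE 0.079, 95% interval −0.10 to 0.31). AICAR against control gave −0.08 (SE 0.079) and metformin against AICAR 0.19 (SE 0.079), with single arrays from −0.28 to 0.13 and from 0.02 to 0.30.

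The factor that these partners act on was read from a list of 13 genes of eIF2, its kinases and its exchange factor, all measured. With metformin 1 was higher and none lower, against 1.5% and 1.23% of all transcripts, and at an unadjusted p below 0.05 in limma 2 were higher and 5 lower. EIF2S2, the β subunit of eIF2, was higher with metformin than in control (log2 1.00, SE 0.15, adjusted p = 0.0405 from limma), a call lost from direct ratios only, and than with AICAR (log2 1.53, adjusted p = 0.00927). EIF2S1, the α subunit that PP1 dephosphorylates, had −0.47 with metformin (adjusted p = 0.0666 from limma) and did not pass. None of the 13 passed for AICAR against control, where 0.456% of all transcripts were called higher and 2.89% lower. At an unadjusted p below 0.05 in limma 2 of them were higher and 1 lower with AICAR. The list had a median log2 ratio of 0.12 with metformin and 0.11 with AICAR, beside −0.00015 and 0.04 over all transcripts.

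PPP1R2 had its largest ratios in culture 1. The log2 ratio of metformin to control, averaged over its 2 probes, was 0.86 and 1.09 in culture 1 and 0.03 and −0.19 in culture 2. The cultures thus did not overlap, and the fitted ratio of 0.45 carried an SE of 0.24 and did not pass. AICAR against control gave 0.84 and 0.96 in culture 1 and 0.37 and 0.23 in culture 2, all above 0, with a fitted ratio of 0.59 (SE 0.24) that did not pass. The probes differed in size, since one read 0.68 with metformin and 0.92 with AICAR and the other 0.23 and 0.26. For AICAR against control, single arrays of the former ran from 0.52 to 1.295. Those of the latter ran from −0.11 to 0.62, so they were not all above 0. Human PPP1R2 has several near-identical pseudogenes, and the files do not show which of them a probe could also bind.

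PPP1R3C did not pass either. Its log2 ratio of metformin to control was −0.0057 and −0.05 in culture 1 and 0.10 and −0.54 in culture 2, with a fitted ratio of −0.09 (SE 0.075). For AICAR against control the fitted ratio was 0.12 and for metformin against AICAR −0.20 (SE 0.075 each), and none of the 3 passed. Of 21 genes of glycogen metabolism 19 were measured. None of these 19 passed with metformin, where 1.5% of all transcripts were called higher and 1.23% lower. At an unadjusted p below 0.05 in limma 4 of them were higher and none lower. With AICAR 1 was higher and 1 lower, against 0.456% and 2.89% of all transcripts. GBE1, the glycogen branching enzyme, rose with AICAR (log2 0.90, SE 0.13, adjusted p = 0.0329 from limma), and STBD1, which tethers glycogen to membranes, fell (log2 −1.03, SE 0.12, adjusted p = 0.0213). GYS1, the muscle form of glycogen synthase and a substrate of PP1, had −0.30 with metformin and −0.32 with AICAR (adjusted p = 0.453 and 0.338 from limma).

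Of the 3 catalytic genes only PPP1CB passed, and it rose with AICAR. Its log2 ratio of AICAR to control was 0.82 and 1.42 in culture 1, with AICAR in Cy5 and in Cy3, and 0.84 and 0.92 in culture 2, so that all 4 arrays were above 0.7. Fitted, this was 1.03 (SE 0.09), 2.04-fold higher with AICAR, which ranked 86 from the highest of all transcripts, and the call held under all 8 other fits at 0.99 to 1.17. As for PPP1R10, several of these fits could not move the ratio of PPP1CB. With metformin the arrays gave 0.28 and 0.605 in culture 1 and 0.0043 and 0.46 in culture 2, with a fitted ratio of 0.31 (SE 0.09) that did not pass. Between metformin and AICAR, PPP1CB was lower with metformin on all arrays, at −0.80 and −0.67 in culture 1 and −0.68 and −0.84 in culture 2, and the fitted ratio of −0.72 (SE 0.09) lay just past the threshold. That call was lost with median-centred arrays (−0.69), with scaled arrays (−0.696) and without the 3 arrays with slide numbers apart (−0.73). In levels relative to the culture mean, on a log2 scale, PPP1CB stood at −0.10 with metformin, 0.62 with AICAR and −0.52 in control in culture 1, and at −0.17, 0.55 and −0.37 in culture 2. The conditions did not overlap, and the share of all transcripts of which this holds was not counted. The protein of PPP1CB is the catalytic subunit of myosin phosphatase, and PPP1R12A, which encodes its targeting subunit, had 0.26 with AICAR (SE 0.10, adjusted p = 0.255 from limma).

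PPP1CA pointed the other way with metformin but its cultures differed. The log2 ratio of metformin to control was 0.23 and −0.67 in culture 1 and −0.84 and −0.86 in culture 2. The fitted ratio of −0.53 (SE 0.21) did not pass. Metformin against AICAR gave −0.08 and −0.51 in culture 1 and −0.97 and −1.30 in culture 2, all below 0, and the fitted ratio of −0.72 (SE 0.21) was as large as that of PPP1CB but did not pass. When arrays were taken as separate data points, without or with a dye term, it did. Both of these fits count dye-swap arrays of the same extracts as replicates, so nothing is read from that pass. PPP1CC stayed within −0.24 and 0.05 for metformin against control and within −0.49 and 0.09 for AICAR against control, with fitted ratios of −0.16 and −0.18 (SE 0.11 each). The fitted ratios of the 3 catalytic genes ran from −0.53 to 0.31 with metformin and from −0.18 to 1.03 with AICAR.

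The genes nearest to PPP1CB over the 6 dye-swap mean ratios were TRDN (root mean square difference 0.148 on the log2 scale), SOD2 (0.163) and RBM27 (0.185). SOD2 encodes the superoxide dismutase of mitochondria, TRDN a protein of the sarcoplasmic reticulum and RBM27 an RNA-binding protein. Their fitted ratios of AICAR to control were 1.04, 1.07 and 0.90, and each of them rose with AICAR. Likeness over these same ratios was how they were picked, so higher values with AICAR follow from the choice.

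**Figure D3:**
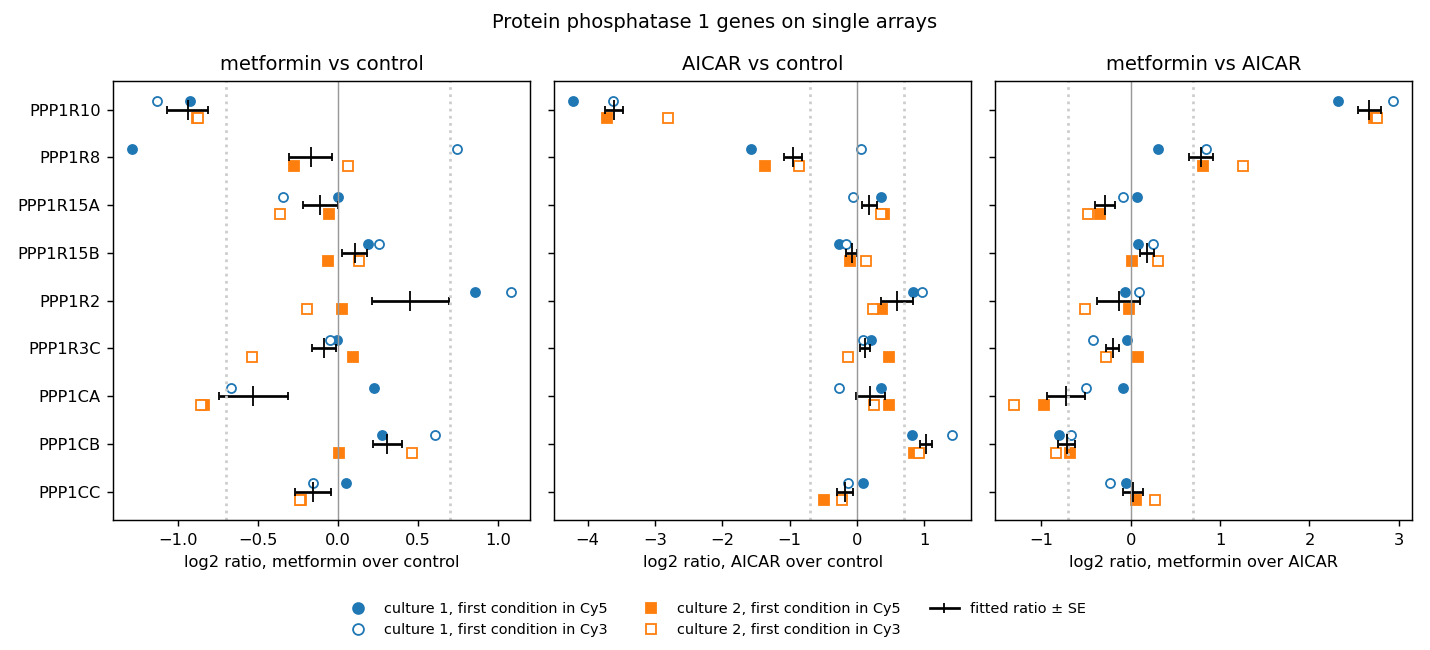
log2 ratios (horizontal axes) of the 9 genes on single arrays, with a panel for each comparison. Circles are culture 1 and squares culture 2, filled where the condition named first was in Cy5 and open where it was in Cy3. Black bars are the fitted ratio ± SE over 2 cultures, and dotted lines mark −0.7 and 0.7. PPP1R10 lies between −4.22 and −2.81 for AICAR against control, and the PPP1R8 arrays of culture 1 are spread from −1.29 to 0.75 for metformin against control.

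Counted over the 9 genes, none was higher and 1 was lower with metformin than in control, where 1.5% and 1.23% of all transcripts passed, and at an unadjusted p below 0.05 in limma 1 was higher and 1 lower. With AICAR 1 was higher and 2 were lower, beside 0.456% and 2.89% of all transcripts. Between metformin and AICAR 2 were higher and 1 was lower with metformin, beside 4.59% and 2.01%. At an unadjusted p below 0.05 in limma, 1 was higher and 2 lower with AICAR than in control. By the same measure 2 were higher and 4 lower with metformin than with AICAR. Nothing is read from these counts, since the choice of the genes knew the comparisons. The median log2 ratio of the 9 genes was −0.11 with metformin and 0.12 with AICAR, each over control, and −0.14 for metformin over AICAR, beside −0.00015, 0.04 and −0.03 over all transcripts. The comparisons share extracts, so their values are not independent of one another. The order of the 3 conditions by relative level was the same in both cultures for 7 of the 9 genes, PPP1R2 and PPP1CC being the exceptions. This order counts any difference, however small. The share of all transcripts with the same order was not counted, so nothing is read from it. PPP1R15A, PPP1R3C and PPP1CA were highest with AICAR and lowest with metformin in both cultures, and PPP1R15B was highest with metformin and lowest with AICAR, but none of these differences passed.

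**Figure D4:**
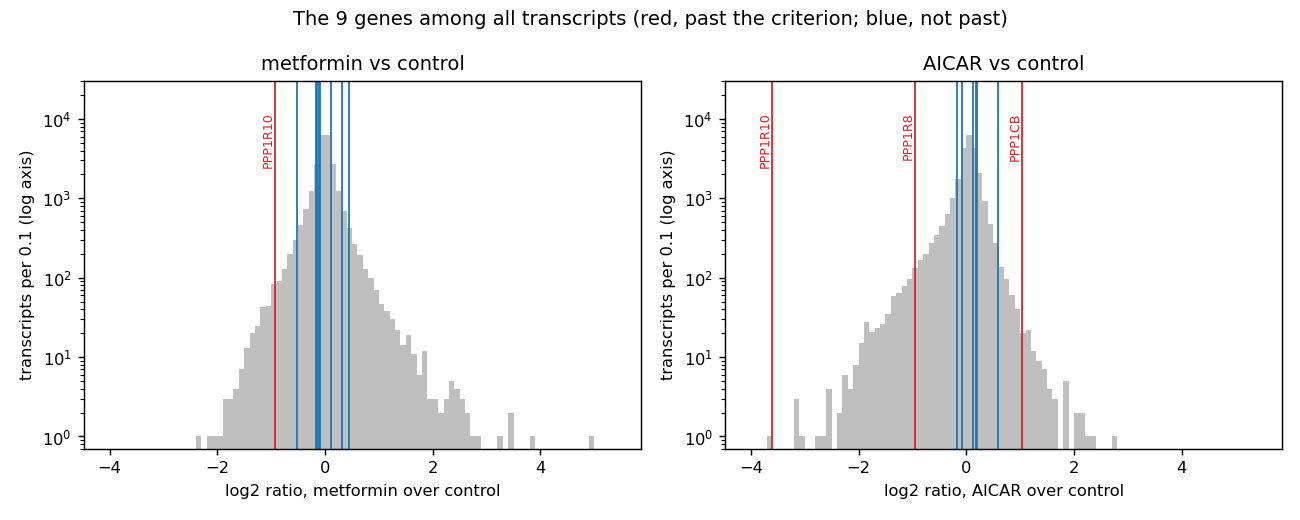
Number of transcripts per 0.1 of the log2 ratio (vertical log axis) for metformin over control and AICAR over control, with the 9 genes as lines, red where they passed and blue where they did not. PPP1R10 lies at the low end of all 24541 transcripts for AICAR over control, at −3.61.

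Other PP1 regulators were read from a list of 48 genes drawn from general knowledge, of which 37 were measured. Earlier results of these data were known when the list was drawn up. With metformin none of them rose and 2 fell (at an unadjusted p below 0.05 in limma 3 were higher and 4 lower), where 1.5% of all transcripts were called higher and 1.23% lower. CDCA2, called Repo-Man, which brings PP1 to chromatin as cells leave mitosis, was at −0.92 with metformin (SE 0.11, adjusted p = 0.0284 from limma), between −1.22 and −0.61 on single arrays. PPP1R14B, an inhibitor of PP1, was at −0.70 (SE 0.075, adjusted p = 0.0217), with single arrays from −1.44 to 0.07. With AICAR 1 of the 37 fell and none rose (3 higher and 5 lower at an unadjusted p below 0.05 in limma), which is 2.7% of the list, close to the 2.89% of all transcripts called lower. The gene was PPP1R26, a nucleolar PP1-binding protein, at −1.25 (SE 0.09, adjusted p = 0.00883) and −1.37 to −1.11 on single arrays.

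Between metformin and AICAR, PPP1R26 (log2 1.27, adjusted p = 0.00515 from limma) and PPP1R13B (log2 0.83, adjusted p = 0.0276), which encodes the p53-binding protein ASPP1, were higher with metformin and CDCA2 was lower (log2 −0.88, adjusted p = 0.0164). Over all transcripts 4.59% were called higher and 2.01% lower with metformin than with AICAR. The median of the 37 was −0.02 with metformin and −0.01 with AICAR, each over control, and their lowest ratio with AICAR was that of PPP1R26. Among 10 catalytic subunits of related phosphatases, all measured, PPP2CA, the main catalytic subunit of PP2A, was higher with AICAR than in control (log2 1.46, SE 0.23, adjusted p = 0.0408 from limma) and lower with metformin than with AICAR (log2 −1.67, adjusted p = 0.0186). Over all transcripts 0.456% were called higher with AICAR than in control, and 2.01% lower with metformin than with AICAR. None of the 10 passed for metformin against control, where 1.5% of all transcripts were called higher and 1.23% lower. At an unadjusted p below 0.05 in limma 1 of the 10 was higher and 1 lower with metformin.

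**Figure D5:**
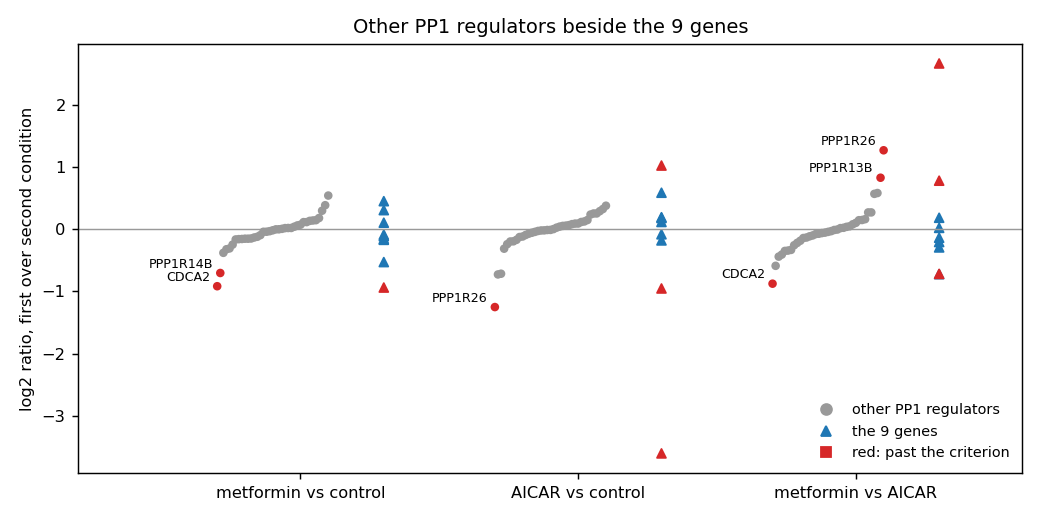
log2 ratios (vertical axis, condition named first over the second) of 37 other PP1 regulators, as dots ordered by value, and of the 9 genes, as triangles, in the 3 comparisons. Red marks genes that passed, and labels name the other regulators among them. PPP1R10 at 2.67 for metformin against AICAR lies beyond all 37. For AICAR against control, at −3.61, this follows from its being the lowest of all transcripts.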

How the data were processed

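Two-colour oligonucleotide arrays compared metformin, AICAR and control extracts of LNCaP cells. The authors deposited log ratios, read as log2 of Cy5 over Cy3, which they had normalized with limma by print-tip loess on each slide and then by quantiles across slides. Its version, and any background correction, are not given in the sources used here. All 27648 features had a value on all 12 arrays. Probes were named by accession (14603), by symbol or synonym (2835) or as listed (155) from the platform annotation and a RefSeq gene table, and 118 with conflicting names were left unnamed. For 2009 genes several probes were averaged.

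Ratios were turned to a common direction, dye-swap arrays were averaged, and least squares gave 6 relative extract levels from the 6 mean ratios. Treatment and culture were fitted in limma 3.58.1 (R 4.3.3), with 2 residual and 2.88 prior degrees of freedom. The sample titles mark each array rep1 or rep2, which the series' design text explains as separate culture experiments. This number pairs the extracts, because ratios exist only within a culture. Intervals are 95% intervals of single ratios. Members and lists were chosen with earlier results of these data known. Named genes were all 9 members, the 3 genes most like each member that passed, and up to 4 passing genes of each list and comparison with the smallest p. MRPS18B, PPP1R12A, WDR82, TOX4, EIF2S1 and GYS1 were named outside this rule after their values were seen, as were DDIT3 and ATF4. The alternatives were direct ratios only, arrays as separate data points, a dye term, leaving out the 3 arrays with slide numbers apart, median-centred or scaled arrays, probes tested singly, robust variances, no ratio threshold and either culture left out. No value was missing, so that filter removed nothing.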

Additional observations from a re-analysis of the deposited data

Results flagged for a closer look

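PPP1R15A for AICAR against control had 1 array, that of culture 1 with AICAR in Cy3, at −0.055, far from the other 3 at 0.35 to 0.39. This is 1 of 27 groups of 4 arrays examined, where 1.35 are expected by chance. PPP1CC for metformin against AICAR ran in opposite directions in the cultures, at −0.14 in culture 1 and 0.17 in culture 2, on both arrays of each, and this difference was not tested.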

How the results depend on the processing

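The fit paired by culture (replicate block) called 368 higher and 303 lower for metformin, 112 and 709 for AICAR. Between metformin and AICAR it called 1126 and 494. No fit without the pairing was possible. From direct ratios only, limma called 0 higher and 0 lower with metformin (3948 transcripts had an unadjusted p below 0.05), including 0 of the 9 genes, and 1 of the 9 was higher between the treatments. Without the 3 arrays of unlike slide number it called 210 higher and 121 lower for metformin, 60 and 382 for AICAR, and 314 lower between the treatments, and of the 9 genes 1 was lower with AICAR, 1 higher and 0 lower between the treatments. Arrays as separate data points gave 464 lower with metformin, 275 higher with AICAR and 2 of the 9 lower between the treatments, and a dye term 468, 278 and 2. Both of these fits count dye-swap arrays of the same extracts as replicates. Scaled arrays gave 67 higher with AICAR, 0 of the 9 lower with metformin, and 1 higher and 0 lower between the treatments, where median-centred arrays also gave 0 lower. With no ratio threshold, 190 rather than 112 were called higher for AICAR, and 1043 lower between the treatments. The cause was not tested. Of the 9 genes' ratios under the other fits, 206 kept sign and side of the threshold, 9 no longer passed, 2 newly passed and 2 changed sign, PPP1R8 for metformin against control without the 3 arrays (0.27) and PPP1CC between the treatments with scaled arrays (−0.0014). Separate arrays, a dye term, probes tested singly and robust variances cannot move the ratio of a single-probe gene, so its sign could not change there. With either culture left out, PPP1R2 ran from −0.046 to 0.95 for metformin against control and −0.31 to 0.036 between the treatments, and PPP1CC from −0.37 to 0.015 for AICAR against control and −0.10 to 0.15 between the treatments. Such a ratio has no residual degrees of freedom and was not tested. The 2 cultures and the lack of intensities limit every value.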
